A study of Mus musculus with 8 samples.

Results

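The chaperonin CCT, also called TRiC, is the folding machine of the cytosol, and its 8 subunit genes (Tcp1, Cct2, Cct3, Cct4, Cct5, Cct6a, Cct7 and Cct8) are described here in mouse spleen cells enriched for T cells. The members were all probe sets annotated to 1 of these genes alone, which gave 23 probe sets of 22626 on the array and 8 genes of 12393. RNA was measured on 8 Affymetrix MOE430A_2.0 arrays, which read labelled RNA as fluorescence from short probes grouped into probe sets. Spleen cells of C57Bl/6 mice, wild type or with a knockout of Gfi1, had been enriched for T cells by magnetic separation (a pan-T kit on an AutoMACS). They were taken untreated at 0 h, or after 4, 8 or 24 h of culture with antibodies to CD3, part of the T cell receptor, and to the costimulatory receptor CD28, at 2 µg of antibody per ml. A single array was run for each of the 8 combinations, and each genotype carries a single source number, so the number of animals or pools behind it is not known here. No array holds cells cultured without the antibodies, so the effect of the antibodies and that of time in culture cannot be told apart. The labels name no allele, promoter, Cre or age of the mice.

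CCT is built of 2 stacked rings, and each ring holds 1 copy of each of the 8 subunits in a fixed order around a central cavity. A protein that cannot fold unaided is closed inside this cavity by a lid formed by the subunits themselves, in a cycle driven by ATP. Its best known clients are actin and tubulin, together with many proteins built of WD40 repeats, and prefoldin and phosducin-like proteins work with it. Tcp1, Cct2, Cct4 and Cct5 lie on the side of the ring that binds ATP tightly, and Cct3, Cct6a, Cct7 and Cct8 lie on the side that binds it weakly. T cells that are activated grow, rebuild their actin and tubulin cytoskeleton and enter division, all of which use CCT clients. Gfi1 is a zinc finger repressor of transcription in lymphoid and myeloid cells.

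The subunit genes with a promoter entry lie on 7 chromosomes. Promoters of 3 of them are shown because these genes stood at the ends of the range at 24 h: Cct3 had the largest fitted change, and Cct7 and Cct8 had the smallest changes in the knockout-labelled arrays. Each sequence holds the 250 bases before the start of the gene in RefSeq (assembly GRCm38.p6), written 5′ to 3′ on the strand of the gene. The windows are chr3:88296885-88297134 on the plus strand, chr6:85451255-85451504 on the plus strand and chr16:87495870-87496119 on the minus strand. Capitals mark the CCAAT box (CCAAT), the GC box (GGGCGG) and an ETS site (CCGGAAG), each searched on both strands.
Cct3: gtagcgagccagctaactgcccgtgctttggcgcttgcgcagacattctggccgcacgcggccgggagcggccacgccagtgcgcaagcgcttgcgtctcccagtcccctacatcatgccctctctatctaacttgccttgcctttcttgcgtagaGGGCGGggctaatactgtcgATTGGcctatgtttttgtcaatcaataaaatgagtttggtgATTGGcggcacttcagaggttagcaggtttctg
Cct7: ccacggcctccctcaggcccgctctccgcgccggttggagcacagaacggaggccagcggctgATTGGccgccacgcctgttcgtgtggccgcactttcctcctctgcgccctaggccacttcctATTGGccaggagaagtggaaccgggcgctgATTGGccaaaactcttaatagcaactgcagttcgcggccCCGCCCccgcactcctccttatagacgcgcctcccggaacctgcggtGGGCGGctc
Cct8: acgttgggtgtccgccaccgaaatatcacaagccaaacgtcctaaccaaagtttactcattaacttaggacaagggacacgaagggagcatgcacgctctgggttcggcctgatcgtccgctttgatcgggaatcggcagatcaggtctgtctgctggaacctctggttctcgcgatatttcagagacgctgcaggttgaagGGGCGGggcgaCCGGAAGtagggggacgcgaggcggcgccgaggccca

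The table of promoters matched 7 of the 8 members, with 2 windows each for Cct2 and Cct5. A gene was counted when any of its windows matched, while the shares count single windows, so the 2 are not on the same basis. The GC box was found in a window of all 7 genes and in 32.74% of the 32851 windows of this length in the table. CCAAT was found for 4 genes, Tcp1, Cct3, Cct6a and Cct7, and in 33.85% of all windows. The ETS letters were found for Cct2 and Cct8 and in 6.91% of all windows. Heat shock elements, the sites of the heat shock factors, were searched as TTCNNGAA, found for Cct5 and in 7.17% of windows, and as GAANNTTC, found for Cct2 and in 6.69%. The E-box CACGTG, which Myc and related factors bind, was found in 6.02% of windows and for 0 of the 7 genes. AAATCAC, the core of the site that Gfi1 binds, was found in 2.75% of windows and for 0 of the 7 genes. The 2 heat shock patterns can overlap in a longer element, and ETS and heat shock letters share GAA. Such overlaps were not counted.

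The deposited values are signals that the authors' software had scaled, with a 2% trimmed mean of 1000.4 to 1000.5 on every array. The median signal of an array ran from 224 (wild type, 24 h) to 305 (knockout, 0 h), and 56.6% to 61.6% of values per array lay above a floor of 141.88, under which values were not distinguished. Gfi1 itself gave signals of 2316, 5979, 6459 and 9885 in the knockout-labelled arrays at 0, 4, 8 and 24 h. In the wild type it gave 882, 6359, 5259 and 3966. The position of this probe set against the deletion is not known here, so it checks no label, and the arrays are named by their labels throughout. The enriched cells were not T cells alone: all 13 tested T cell markers, such as Cd3d, were above the floor on every array, but so were markers of other cells, given beside the genotype comparison.

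The CCT genes were strongly detected. The most intense probe set of each gene represents it below, and on these rows the 8 genes ran from 6075 (Cct7, knockout, 4 h) to 25707 (Cct2, wild type, 24 h), all far above the floor. Of the 23 probe sets, 21 passed the filter of a signal above the floor on at least 2 arrays, and 19 were above it on all 8 arrays.

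**Figure D1:**
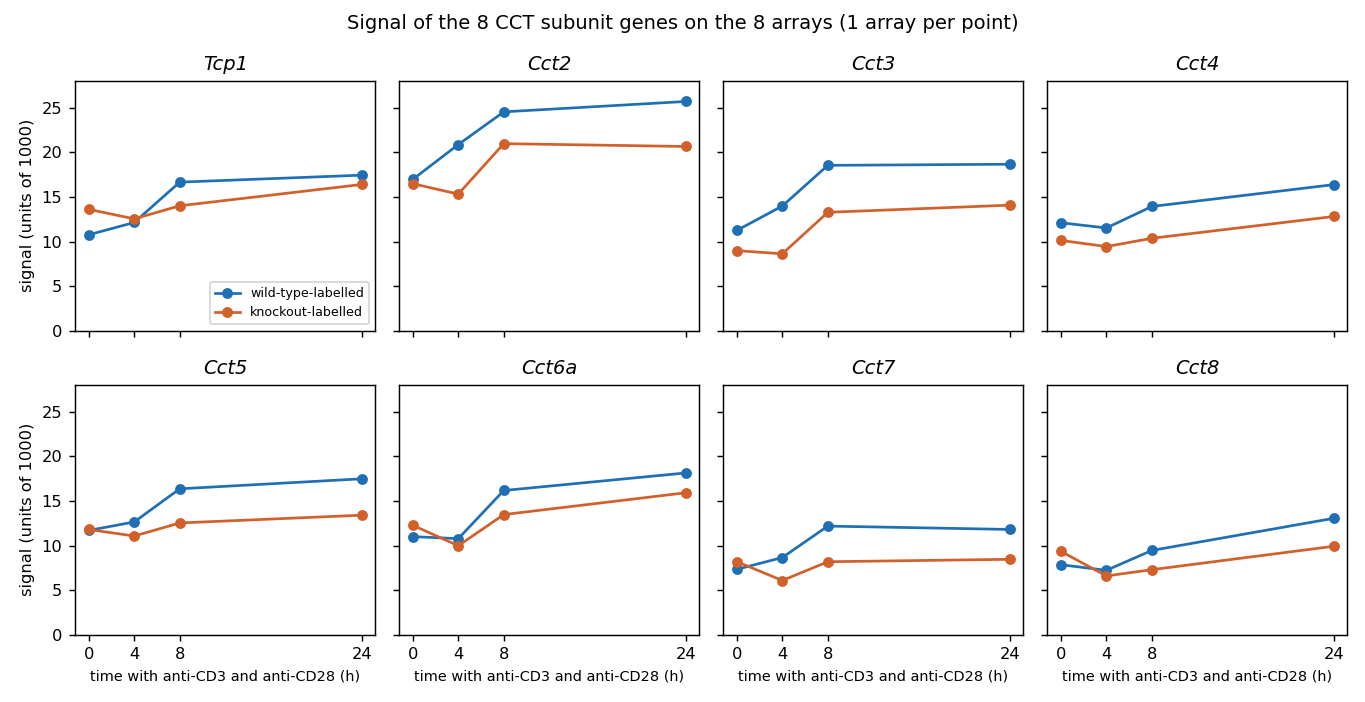
Signal (linear scale, in units of 1000) of the 8 CCT genes against hours with anti-CD3 and anti-CD28, 1 point per array, blue for wild-type-labelled and orange for knockout-labelled arrays. As deposited, all 8 genes end higher at 24 h than at 0 h in both genotypes (3 of 8 in the knockout after quantile normalization), and from 8 h on every wild-type point lies above the knockout point.

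The first question is whether CCT transcripts changed as the cells were activated. By 24 h the signal of all 8 genes was above that of 0 h in both genotypes, as for 21.8% of all tested genes, by a median of 1.62-fold in the wild-type-labelled and 1.23-fold in the knockout-labelled arrays. At 24 h both arrays lay above both 0 h arrays for 8 of 8 genes, a pattern seen in 17.7% of the 8457 tested genes. At 8 h this held for 5 of 8 genes, with 15.5% over all genes, and at 4 h for 0 of 8, with 12.4%. The direction at 24 h depends on the scaling in the knockout: after quantile normalization 3 of 8 genes were higher there at 24 h, and both arrays were above both 0 h arrays for 2 of 8. In limma, where the residual is how far the 2 genotypes' responses differ, 0 of the 8 genes reached an adjusted p under 0.05 with a 2-fold change at 4, 8 or 24 h. Over all tested genes 1.43%, 2.44% and 3.97% did at these times. At an unadjusted p under 0.05, limma gave 0, 1 and 2 of the 8 genes higher at 4, 8 and 24 h and 0 lower at each time, beside 5.51%, 7.27% and 7.67% of all genes higher. The median fitted change of the 8 genes, 0.34 at 8 h and 0.44 at 24 h, became 0.15 and 0.24 after quantile normalization and 0.60 and 0.73 after division by the array median. These p-values measure the spread between 2 sources, which differ in genotype, not that between animals or cultures.

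On the side of the ring that binds ATP tightly, Tcp1, the alpha subunit and the first of the family to be found, gave 10757, 12136, 16659 and 17442 in the wild-type-labelled arrays at 0, 4, 8 and 24 h. It gave 13608, 12543, 14006 and 16397 in the knockout-labelled arrays. The 24 h values of both genotypes were the highest, and the knockout array at 4 h lay below its own 0 h value. The fitted log2 change was 0.03 at 4 h, 0.34 at 8 h and 0.48 at 24 h (SE 0.23, limma adjusted p = 0.288 at 24 h). Cct2, the beta subunit, gave 16974, 20875, 24543 and 25707 in the wild-type-labelled and 16483, 15323, 20978 and 20659 in the knockout-labelled arrays. Both genotypes thus showed most of their difference from 0 h by 8 h, and the fitted change was 0.44 at 8 h and 0.46 at 24 h (SE 0.22, limma adjusted p = 0.288 at 24 h).

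Cct4, the delta subunit, one of those that touch actin during folding, gave 12104, 11519, 13931 and 16382 in the wild-type-labelled arrays. In the knockout-labelled arrays it gave 10125, 9433, 10364 and 12808. Here 4 h was the lowest time in both genotypes, and at 8 h the knockout array was close to its 0 h value. The fitted change of Cct4 was -0.09 at 4 h, 0.12 at 8 h and 0.39 at 24 h (SE 0.20, limma adjusted p = 0.317 at 24 h). With each array's median over the Cct4 probe sets the 8 h change was 0.50, and on the main row scaling moved it to -0.07 (quantile) or 0.37 (division by the array median). Cct5, the epsilon subunit, started level, at 11696 in the wild-type-labelled and 11801 in the knockout-labelled array. It then reached 12646, 16364 and 17484 in the former and 11065, 12532 and 13402 in the latter. The groups of arrays from 8 and 24 h lay above those of 0 h, and the fitted change was 0.29 at 8 h and 0.38 at 24 h (limma adjusted p = 0.364 at 24 h).

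On the other side of the ring, Cct3, the gamma subunit, showed the largest fitted change of the 8. It gave 11246, 13983, 18545 and 18669 in the wild-type-labelled and 8975, 8623, 13275 and 14079 in the knockout-labelled arrays. In both genotypes the 8 h and 24 h arrays stood apart from the 0 h and 4 h arrays. The log2 change was 0.64 at 8 h (unadjusted p = 0.019, limma adjusted p = 0.166) and 0.69 at 24 h (SE 0.21, unadjusted p = 0.014, limma adjusted p = 0.131). The adjusted p at 24 h ran from 0.0585 to 0.417 over the alternatives tried, and with the median over its probe sets the change was 0.39.

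Cct6a, the zeta subunit of somatic cells, gave 11000, 10771, 16173 and 18140 in the wild-type-labelled and 12272, 9977, 13471 and 15919 in the knockout-labelled arrays. Its 4 h arrays were below both 0 h arrays and its 24 h arrays above them. The fitted change was -0.16 at 4 h, 0.35 at 8 h and 0.55 at 24 h (SE 0.22, unadjusted p = 0.039, limma adjusted p = 0.210 at 24 h). The sign of the 4 h value turned when each array was divided by its median (0.02). Cct6b and Cct8l1, relatives known mainly from the germ line, had no tested probe set.

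Cct7, the eta subunit, gave 7332, 8652, 12182 and 11804 in the wild-type-labelled arrays. In the knockout-labelled arrays it gave 8193, 6075, 8183 and 8456, so that 0, 8 and 24 h were nearly level and only the 4 h value was low. Its log2 change at 24 h was 0.69 in the former and 0.05 in the latter, and the fitted change was 0.37 (SE 0.25, limma adjusted p = 0.450). Cct8, the theta subunit, gave 7846, 7221, 9451 and 13056 in the wild-type-labelled and 9348, 6589, 7292 and 9918 in the knockout-labelled arrays. Its fitted change was the lowest of the 8 at 4 h (-0.31) and 8 h (-0.04), and was 0.41 at 24 h (limma adjusted p = 0.373 at 24 h). In the wild type alone Cct4 changed less at 8 h (0.20) than Cct8 (0.27). The 8 h value of Cct8 had the other sign when each array was divided by its median (0.21).

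Between 4 and 8 h all 8 genes were higher in both genotypes, with a median fitted change of 0.33, beside 24.8% of all genes higher in both. Between 8 and 24 h 6 of 8 were higher in both genotypes, beside 26.2% of all genes, with a median of 0.12. In limma 0 of 8 genes passed for either step, as did 0% of all genes. At an unadjusted p under 0.05 Cct3 alone of the 8 was higher from 4 to 8 h, with 1.15% of all genes higher, and 0 of 8 were from 8 to 24 h, with 4.43%.

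**Figure D2:**
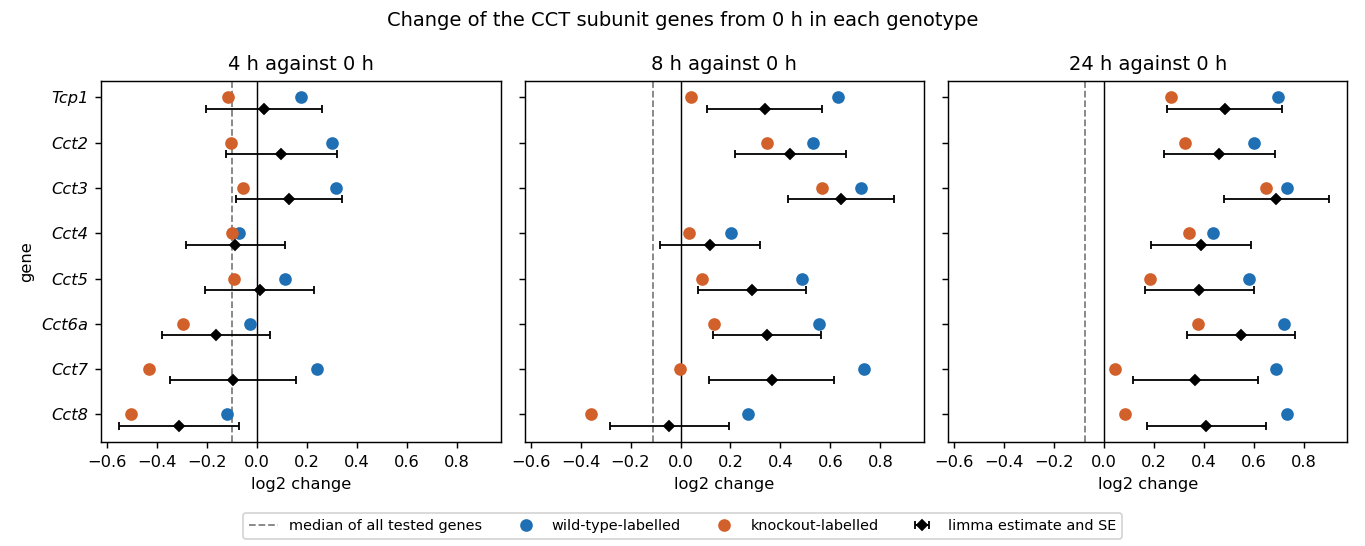
Log2 change from 0 h of each CCT gene at 4, 8 and 24 h, with blue points for the wild-type-labelled pair of arrays, orange for the knockout-labelled pair, and black diamonds with bars for the limma estimate and its SE. The dashed line is the median of all tested genes (-0.10, -0.11 and -0.08). As deposited, the blue point lies to the right of the orange point for all 8 genes in each panel.

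The second question is whether the knockout-labelled cells responded in the same way. With 1 array per genotype and time this was compared by size alone, with no test. Before stimulation the genotypes differed in both directions: 3 of 8 CCT genes were lower in the knockout, beside 48.4% of all genes, and the differences ran from -0.33 (Cct3) to 0.34 (Tcp1) on the log2 scale, with a median of 0.09. At 4 h 7 of 8 were lower (49.2% of all genes), and at 8 h and 24 h 8 of 8 were (54.3% and 45.5%). The median differences of the CCT genes at these times were -0.24, -0.38 and -0.37, where the medians of all tested genes were 0.00, -0.08 and 0.00. A lower value at all of 4, 8 and 24 h was seen for 7 of 8 CCT genes and for 23% of all genes. The count was 6 of 8 after quantile normalization and 8 of 8 after division by the array median. Under that division the median differences of all tested genes were themselves lower, at -0.11, -0.16 and -0.19. In the same direction at all 4 times, 0 of 8 genes differed 2-fold, beside 2.02% of all genes, and 0 of 8 differed 1.5-fold, beside 4.69%. This rule includes 0 h, where 5 of 8 were higher in the knockout. A gene that changed direction could not meet it at any size, so it does not measure the differences at single times. The largest of those was -0.70 (Cct3 at 4 h).

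The size of the difference varied among the subunits. Cct3 was lower in the knockout-labelled array at every time, by log2 differences of -0.33, -0.70, -0.48 and -0.41 at 0, 4, 8 and 24 h (mean -0.48, SD over the 4 times 0.16). Cct4 was also lower at all 4 times (mean -0.33, SD 0.08). Its other bright rows were less even, at -0.09, -0.36, -0.56 and -0.39 for 1433447_x_at and -0.08, -0.09, -0.67 and -0.72 for 1438560_x_at. Cct2 was level at 0 h and then stood at -0.45, -0.23 and -0.32, although at 8 h its difference was 0.01 after quantile normalization. Cct7 was at 112% of the wild-type signal at 0 h and then at 70.2%, 67.2% and 71.6%. Cct5, level at 0 h, was at -0.19, -0.38 and -0.38. Cct8 stood 0.25 higher in the knockout at 0 h and then at -0.13, -0.37 and -0.40. Cct6a followed the same order with smaller differences, 0.16 at 0 h and then -0.11, -0.26 and -0.19. The signed mean was smallest for Tcp1 (0.01, SD 0.25), because differences of opposite sign cancelled. Its knockout value was higher at 0 h by 0.34, the largest difference of the 8 at that time, and at 4 h by 0.05. At 8 and 24 h it then stood at -0.25 and -0.09.

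**Figure D3:**
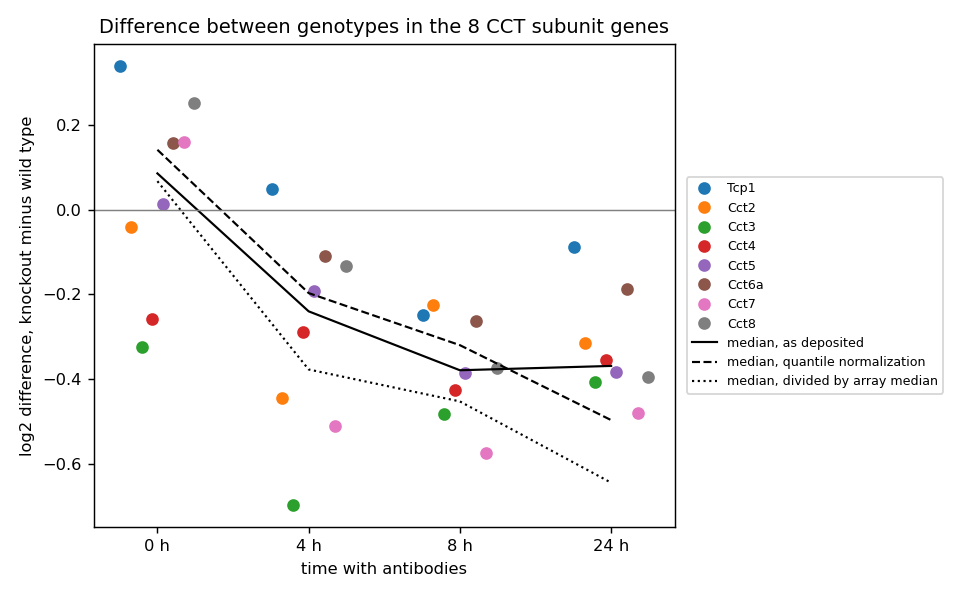
Log2 difference of each CCT gene between the knockout-labelled and the wild-type-labelled array of the same time, 1 coloured point per gene, with the median over the 8 genes as deposited (solid line), after quantile normalization (dashed) and after division by the array median (dotted). Under all 3 scalings the median is above 0 at 0 h and below 0 at 4, 8 and 24 h.

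Set as a response, the signed change from 0 h was lower in the knockout-labelled arrays for 8 of 8 CCT genes at each of 4, 8 and 24 h. Over all tested genes it was lower for 45.3%, 51.8% and 46.5%. These 3 counts share the same pair of 0 h arrays. Division by the array median left all 3 counts at 8 of 8, and quantile normalization left 7 of 8 at 4 h and 8 of 8 at the later times. That division shifts all genes in the same direction. Under it the median change of all tested genes at 24 h was 0.18 in the wild-type-labelled and 0.05 in the knockout-labelled arrays. Shares of all genes were not counted under either scaling. The median of the difference in response was -0.33, -0.41 and -0.37. At 4 h the wild-type-labelled signal was above 0 h for 5 of 8 genes and the knockout-labelled signal below it for 8 of 8, beside 38.3% and 54.6% of all genes. After division by the array median, 8 were above 0 h at 4 h in the wild type and 5 in the knockout. The genotypes moved apart, up in the wild type and down in the knockout, for 5 of 8 genes at 4 h and 2 of 8 at 8 h, beside 14.6% and 16% of all genes. The 2 at 8 h were Cct8 and Cct7, and the knockout change of Cct7 was close to level (-0.002). At 8 h 8 of 8 were above in the wild-type-labelled (42.2% of all genes) and 6 of 8 in the knockout-labelled array (36.4%). At 24 h 8 of 8 were above in each, beside 39.5% and 44.9% of all genes.

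Markers of other cell types moved with the genotype. Of the 13 tested T cell markers, 13 were lower in the knockout at 0, 4 and 8 h and 10 at 24 h, with median differences of -1.79, -1.81, -1.64 and -0.24. Their summed signal was 70553 to 102544 in the wild-type-labelled and 23870 to 59291 in the knockout-labelled arrays. Of 12 granulocyte markers, 9, 9, 10 and 9 were higher in the knockout-labelled arrays, with sums of 5784 to 168638 against 880 to 16468. The granule proteins Mpo, Elane, Prtn3 and Ctsg were among them, and at 24 h 11 of the 12 were at the floor in the wild type. Of 10 monocyte markers, 9, 10, 10 and 10 were higher, with sums of 27443 to 71162 against 4008 to 16941. Of 11 tested genes of mitosis, such as Mki67 and Top2a, 11, 11 and 11 were higher at 0, 4 and 8 h and 10 were lower at 24 h, with sums of 6574 to 39651 against 6107 to 17679. The part of these cells in the CCT differences was not tested. In such bulk RNA a change in the number of cells of a type and a change in the RNA per cell cannot be told apart.

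Times also differed in these markers. Over all 8457 tested genes, 210 were called lower at 24 h in limma. B cell and erythroid markers were called lower at 24 h in limma for 4 of 5 genes (Cd79a, Cd79b, Cd22 and Blk) and 5 of 5 (Klf1, Epor, Rhag, Ermap and Aqp1), with summed signals of 951 to 5097 and 961 to 9985 over the wild-type-labelled arrays and 708 to 3942 and 585 to 14469 over the knockout-labelled arrays. Granulocyte markers were called lower at 24 h for 8 of 12 genes and monocyte markers for 1 of 10, Lyz2. The part of this loss in the change of the CCT genes from 0 h was not tested.

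Several genes had more than 1 probe set, which gives a second reading of the same RNA on the same arrays. Tcp1 and Cct5 had 1 each, Cct6a, Cct7 and Cct8 had 2, Cct2 had 3, and Cct3 and Cct4 had 6 each. All 19 probe sets that were above the floor on all 8 arrays were higher at 24 h than at 0 h in both genotypes, with fitted changes of 0.20 to 0.83. Of all 11048 probe sets above the floor on every array, 24.7% were higher in both. After quantile normalization 13 of the 19 CCT probe sets were. Of these 19, 16 were lower in the knockout at 4, 8 and 24 h, beside 27.9% of the 11048 (15 of 19 after quantile normalization). Of the 23, 7 carry the suffix x and 3 the suffix s. By these the maker marks probes that may also bind, or are shared with, other transcripts, and CCT genes have processed pseudogenes. The row that represents Cct2 throughout, 1433535_x_at, is 1 of the 7.

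At 24 h the brighter probe sets of a gene had fitted changes of the same sign, and at earlier times some differed. At 4 h in the wild type the main Cct6a row changed by -0.03 and the second by 0.34. For Cct4, 1415867_at changed by -0.07 and 1433447_x_at by 0.31. At 4 h in the knockout Cct2 changed by -0.11 on the main row, 0.05 on 1416037_a_at and 0.29 on 1433534_a_at. For Cct7 the values were -0.43 on the main row and 0.03 on 1415817_s_at. The Cct3 rows 1416024_x_at, 1459987_s_at and 1449645_s_at fell like the main row (-0.03, -0.43 and -0.19), and the dim 1426067_x_at rose (0.27). At 8 h the fitted change of Cct4 was 0.12 on the main row and 0.43 to 0.57 on the 3 others above the floor on all arrays. The other Cct2 rows, 1416037_a_at and 1433534_a_at, had fitted changes at 24 h of 0.48 and 0.63. The rows 1416024_x_at, 1459987_s_at and 1449645_s_at of Cct3 had 0.50, 0.39 and 0.59, and the dim row 1426067_x_at had 0.83 with signals of 299 to 718. That dim row was the reverse of the others in genotype, higher in the knockout-labelled array at 24 h by 0.63. For Cct4, 1433447_x_at and 1438560_x_at had changes of 0.65 and 0.60, and 1456082_x_at had 0.20 with signals of 742 to 1416. The second row of Cct6a, 1423517_at, had 0.57, and the second row of Cct7, 1415817_s_at, had 0.59. That Cct7 row showed the same contrast as the first, with log2 changes at 24 h of 1.02 in the wild type and 0.15 in the knockout.

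The remaining 4 probe sets carry little. Cct4 1456572_x_at was above the floor on 7 arrays and swung between 82.5 and 758 with opposite directions in the genotypes, -1.12 in the wild type and 1.64 in the knockout at 24 h. Cct4 1415868_at was above it on 4 arrays, with 7.9 to 273. Cct3 1451915_at (1.9 to 17.2) and Cct8 1436973_at (1.0 to 39.0) were under the floor on all 8 arrays.

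**Figure D4:**
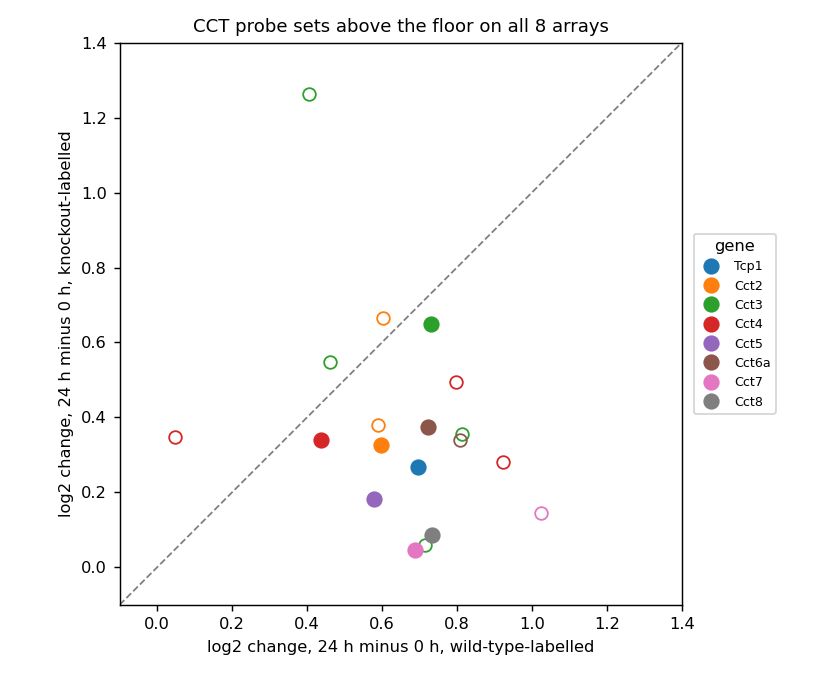
Log2 change from 0 h to 24 h of the 19 CCT probe sets above the floor on all 8 arrays, wild-type-labelled pair on the horizontal and knockout-labelled pair on the vertical axis. Filled points represent a gene and open points are its other probe sets. With the signals as deposited all lie above 0 on both axes, and the highest knockout change (1.26) is that of the dim Cct3 row 1426067_x_at.

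The 8 genes kept close to each other across the arrays. Pearson correlations of pairs over the 8 arrays ran from 0.60 (Cct3 and Cct8) to 0.98 (Cct2 and Cct3), with a median of 0.83. The arrays share their processing and their 2 sources, so these are descriptions. Pairs within other sets of genes were not correlated, so closeness of this degree is not shown to be particular to CCT. Cct5 followed the mean of the other 7 most closely (r = 0.98) and Cct8 least (r = 0.79). The mean log2 of the 8 genes, relative to the wild-type-labelled 0 h array, was lowest in the knockout at 4 h (-0.18). It was then 0.04 in the knockout at 0 h, 0.11 in the wild type at 4 h, 0.14 in the knockout at 8 h and 0.32 in the knockout at 24 h. The highest values were 0.52 and 0.65 in the wild type at 8 and 24 h. Neighbours in this order have 1 array each and no spread between replicates. The change from 0 h differed among members by an SD of 0.10 in the wild type and 0.19 in the knockout at 24 h. The largest departure of a gene from this shared profile was that of Cct3 in the knockout at 0 h (-0.36), and the next was that of Cct8 on the same array (0.28).

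The 10 tested genes whose log2 profile was most like the CCT mean had Pearson correlations of 0.95 to 0.99 over the 8 arrays. They were Gtf2h1, a subunit of the general transcription and repair factor TFIIH (0.99), Bccip, a protein that binds BRCA2 (0.98), Mrpl47 of the mitochondrial ribosome (0.97), Tstd2 (0.97) and Pacrgl (0.97). The others were Hspd1, the mitochondrial chaperonin (0.96), the nucleoside diphosphate kinase Nme1 (0.96), the Mediator kinase Cdk8 (0.96), the Polycomb protein Bmi1 (0.96) and AW209491 (0.95). Hspd1 gave 14141, 15438, 22665 and 26334 in the wild-type-labelled and 17775, 12576, 16977 and 19541 in the knockout-labelled arrays. Its order of arrays was close to that of Cct7 and Cct8, with the knockout higher at 0 h and lower at the 3 later times.

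Genes that work with CCT were read from lists of its partners, clients and neighbours among chaperones. In limma 0 of 5 tested prefoldin genes passed at 4, 8 or 24 h, with a median log2 change at 24 h of 0.42 (0.58 in the wild type, 0.31 in the knockout). Prefoldin carries new actin and tubulin chains to CCT. Its member Pfdn2 had the largest value at 24 h (0.85, limma adjusted p = 0.201) and Pfdn5 the smallest (-0.10, adjusted p = 0.858). Pfdn2 gave 1849, 3312, 2456 and 4355 in the wild-type-labelled and 1982, 1806, 2857 and 2735 in the knockout-labelled arrays. Of 3 phosducin-like genes, whose products dock on CCT, 0 passed, and their median was 0.64. Txndc9 was at 0.68 (adjusted p = 0.145) and Pdcl at 0.20 (adjusted p = 0.732), and unlike the CCT genes the median was higher in the knockout-labelled (0.83) than in the wild-type-labelled arrays (0.43).

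Among the clients, the 2 actin genes did not follow CCT. Actb gave 46325, 57214, 59989 and 36438 in the wild-type-labelled and 36339, 43768, 44011 and 64633 in the knockout-labelled arrays, so that at 24 h the wild type was at its lowest and the knockout at its highest. Actg1 at 24 h was at -0.05 in the wild type and 1.03 in the knockout, against 0.49 in the fit (adjusted p = 0.421). Of 11 tested tubulin genes 0 passed, with a median of -0.07. The extremes were Tubb6 (1.59, adjusted p = 0.232, at or near the floor in the wild type) and Tubb4b (-0.72, adjusted p = 0.395). Of 5 tubulin cofactors 0 passed, with a median of 0.21, from Tbcc (-0.08) to Tbce (0.63). Of 12 WD40 and other clients 0 passed, with a median of 0.02. Their extremes were Gnb1 (0.85, adjusted p = 0.107), a G protein beta subunit, and Cdc20 (-1.48, adjusted p = 0.344), an activator of the anaphase-promoting complex.

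Among other chaperones, the inducible HSP70 genes were the only ones of these lists that passed. Hspa1b fell by 2.14 on the log2 scale at 24 h (SE 0.33, limma adjusted p = 0.025). It gave 3108, 2072, 3415 and 972 in the wild-type-labelled and 2296, 785, 2322 and 376 in the knockout-labelled arrays, low at 24 h in both. Hspa1a fell by 2.01 (SE 0.36, limma adjusted p = 0.036), although its knockout signal at 24 h, 90.5, was under the floor. These 2 near-identical genes can share probes. Of the 14 HSP70 and HSP40 genes 2 passed lower and 0 higher, beside 210 lower and 126 higher of all 8457 tested genes. The largest value on this list was that of the mitochondrial Hspa9 (0.95, adjusted p = 0.145). Of the mitochondrial chaperonin pair 0 of 2 passed, at 0.52 for Hspd1 and 0.50 for Hspe1. Of 6 HSP90 genes and co-chaperones 0 passed, with a median of -0.28, from Fkbp5 (-1.09, adjusted p = 0.124) to Stip1 (0.30, adjusted p = 0.519). Of 6 genes of the R2TP and TELO2 complexes 0 passed, with a median of 0.24 (0.46 in the wild type and -0.13 in the knockout), from Pih1d1 (-0.35) to Ruvbl2 (0.63).

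At an unadjusted p under 0.05 in limma, the lists held these genes at 24 h: 2 prefoldin, 2 phosducin-like, 2 WD40 client, 1 tubulin and 1 HSP70 or HSP40 gene were higher. On the lower side were 5 HSP70 or HSP40 genes, 1 WD40 client and 1 HSP90 co-chaperone. For actins, tubulin cofactors, the mitochondrial chaperonin and the R2TP and TELO2 list the count was 0 in both directions. Over all tested genes 7.67% were higher and 14.2% lower at this p.

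**Figure D5:**
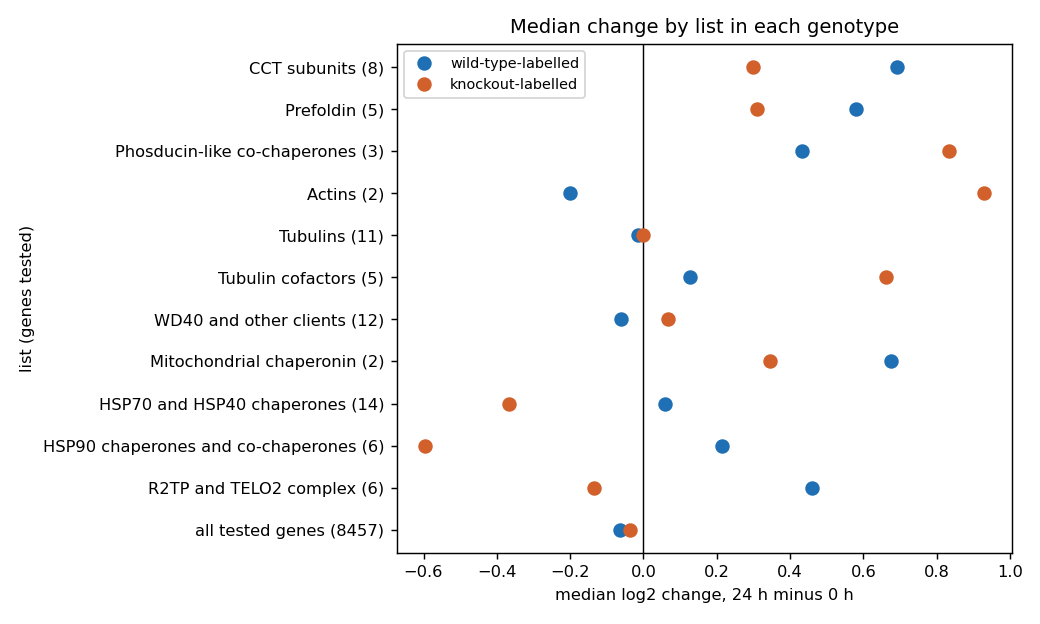
Median log2 change from 0 h to 24 h of each list in the wild-type-labelled (blue) and knockout-labelled (orange) pair of arrays, with the number of tested genes in brackets. The CCT medians are 0.69 and 0.30, and those of all tested genes are -0.06 and -0.04.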

How the data were processed

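Signal intensity on a linear scale was deposited by the authors for 22690 probe sets (64 of them controls) on 8 arrays. It came from GCOS 1.4 with MAS5, per the submitters' processing notes, and no genome build or per-spot file was used. Total RNA was extracted with TRIzol and about 1 µg was used for biotin-labelled cRNA, per the labels' protocols. All columns of values were used (0 unused).

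From the deposited signals, values under 141.88 (log2 7.15, the median over arrays of the 40th percentile) were set to that floor and log2 was taken. The 15062 probe sets above it on at least 2 arrays were tested, and the most intense of its tested probe sets (by mean) stood for each of 8457 genes. Of the probe sets, 20380 list 1 gene symbol, 691 several and 1555 none in the platform annotation. Time was tested in limma 3.58.1 (R 4.3.3) with genotype as a term, a variance trend, 3 residual degrees of freedom and Benjamini-Hochberg adjustment over all probe sets. A call needs an adjusted p under 0.05 and a 2-fold change. Genotypes were compared by size, with no p-value, and 8 arrays limit the precision. The test of 24 h against 0 h was tried on simulated data with changes larger than those of the CCT genes. It does not show whether changes of their size would be found. Figures and sequences used python 3.11.15, pandas 2.3.3, numpy 2.4.6 and matplotlib 3.10.9.

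The members, the 20 lists and the tests were chosen with earlier results of these data known. The text names every CCT probe set, of each other list the called genes and those with the largest and smallest change at 24 h, and the 10 genes most like the CCT mean profile. These 10 were taken among genes whose SD over the arrays was at least 0.5 times that of the mean profile. The marker genes Cd3d, Mpo, Elane, Prtn3, Ctsg, Mki67 and Top2a are examples of their lists. Hspd1 and its values are named as one of the 10. Alternatives were quantile normalization, division by the array median, a floor at the 20th or the 60th percentile, no low-value filter, log2 of signal plus floor, the median over probe sets, no genotype term, no variance trend, other call rules and left-out arrays. Settings for the counts of genes higher or lower by any size were chosen after seeing the data.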

Additional observations from a re-analysis of the deposited data

Results flagged for a closer look

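At 4 h the 2 genotypes moved in opposite directions for 5 CCT genes, with the wild-type-labelled array above and the knockout-labelled array below its own 0 h value. The difference in response, knockout minus wild type on the log2 scale, was -0.29 for Tcp1 (0.17 in the wild type, -0.12 in the knockout) and -0.40 for Cct2 (0.30 and -0.11). It was -0.37 for Cct3 (0.31 and -0.06), -0.21 for Cct5 (0.11 and -0.09) and -0.67 for Cct7 (0.24 and -0.43). Division by the array median turned the knockout 4 h change upward for Tcp1 (0.007), Cct2 (0.02), Cct3 (0.07) and Cct5 (0.03). That of Cct7 stayed below 0 (-0.31). After quantile normalization Cct5 fell in both genotypes (-0.05 and -0.20), and the others kept their directions. Other rows of Cct2 (1416037_a_at, 1433534_a_at) and Cct7 (1415817_s_at) rose in the knockout, by 0.05, 0.29 and 0.03. The brighter other rows of Cct3 fell there. At 8 h Cct7 differed by -0.73 (0.73 in the wild type, -0.002 in the knockout) and Cct8 by -0.63 (0.27 and -0.36). The knockout value of Cct7 was thus close to level, and its row 1415817_s_at rose there by 0.16. With 1 array per genotype and time none of these differences was tested. Opposite directions of this kind were seen in 14.6% of all tested genes at 4 h and 16% at 8 h, as higher in the wild type and lower in the knockout. Granulocyte, monocyte and T cell markers differ between the same arrays, and their part was not tested.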

How the results depend on the processing

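The counts of CCT genes called in limma stayed at 0 in every alternative and with each array left out, and the lowest adjusted p of any CCT gene was 0.0585 (Cct3 at 24 h, arrays divided by their median). No CCT gene differed 2-fold between genotypes in the same direction at all 4 times under any alternative tried, nor 1.5-fold as deposited. The median genotype difference (-0.25) ran from -0.37 with arrays divided by their median to -0.21 after quantile normalization, and without 1 pair of arrays from -0.32 to -0.21. Quantile normalization changed the counts at late times most: both arrays above 0 h held for 2 of 8 genes at 8 h and 2 at 24 h, and 2 and 3 genes were higher in the knockout. Dividing by the array median gave 2 genes with both arrays above at 4 h, 8 higher in the wild type and 5 in the knockout, and the median over probe sets gave 2 and, in the knockout, 2. Each of 24 gene values was read in 17 settings, and 385 of the 408 readings kept their sign. Many of these could not change it. Other floors, no filter, other test terms and left-out arrays of other times leave the fitted value as it was. The 385 therefore do not measure how stable the signs are. The other 23 readings changed sign, 11 of them with an array left out. After quantile normalization these were, at 4 h, Tcp1 (-0.11), Cct2 (-0.067), Cct3 (-0.015) and Cct5 (-0.13), and at 8 h Cct4 (-0.068). With arrays divided by their median they were Cct4 (0.10), Cct6a (0.020) and Cct7 (0.088) at 4 h and Cct8 (0.21) at 8 h. With the median over probe sets they were Cct3 (-0.041), Cct4 (0.14) and Cct7 (0.035) at 4 h. With 1 array left out, the 4 h values ran from -0.19 to 0.25 for Tcp1, -0.047 to 0.24 for Cct2, -0.018 to 0.27 for Cct3, -0.16 to 0.18 for Cct5, -0.34 to 0.0082 for Cct6a and -0.44 to 0.24 for Cct7, and the 8 h value of Cct8 from -0.32 to 0.23. Both arrays above 0 h then held for 0 to 4 genes at 4 h (4 without the knockout 4 h array, 1 without the knockout 0 h array), 5 to 8 at 8 h (8 without the knockout 8 h array) and 8 to 8 at 24 h. A left-out array leaves a time with a lone array, assumed to vary like the others. The scaling moves the median change of all genes at 24 h from -0.08 to 0.15 when arrays are divided by their median, with 0.01 after quantile normalization. The cause of these shifts was not tested. Without the genotype term, which compares times within each source, 0 CCT genes were called as well, and the lowest adjusted p was 0.330 (Cct6a at 24 h). Signals of the main CCT rows lie far above the floor, and each rests on 1 array per group.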

Other observations

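Among genes that regulate chaperone genes, Myc, a factor induced by T cell activation, gave 3225, 16418, 13945 and 7789 in the wild-type-labelled and 4320, 7348, 7020 and 2962 in the knockout-labelled arrays at 0, 4, 8 and 24 h. Its log2 change at 4 h was 1.56 (limma adjusted p = 0.186) and did not pass. Myc was named after its values were seen. Myc was highest at 4 h in both genotypes, and the CCT genes reached their highest values later. A link between Myc and the CCT genes was not tested. Max, the partner of Myc, was at 0.11 at 24 h and Mycn at 0.40 (adjusted p = 0.867 and 0.610), and 0 of the 3 tested regulators passed. Hsf1 and Hsf2, the heat shock factors, were not tested here. Of 3 tested genes listed by their small heat shock or HSP70-binding names, whatever their function, 0 passed, from Hspbp1 (-0.03) to Hspb11 (0.23).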
